A study of Saccharomyces cerevisiae with 17 samples.

Results

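The genes described here encode the histone variant H2A.Z and subunits of SWR1, the complex that installs it. They are HTZ1, SWR1, VPS72 (also called SWC2), SWC3, SWC4, SWC5, SWC7, ARP6, YAF9 and BDF1, chosen by function and systematic name and not by their counts, and all 10 were found among the 5797 gene identifiers of each deposited table. The cells were wild-type budding yeast (Saccharomyces cerevisiae) of the laboratory strain BY4741, grown in rich YPD medium to an optical density of 0.8. SMORE-seq, a method that joins an adapter to the 5′ ends of RNA and reads where each RNA begins, was applied to ribosomal RNA-depleted RNA (3 samples, deposited as 1 table of counts), to poly(A)-selected RNA treated with TAP (1 library), and to poly(A)-selected RNA treated with CIP and then TAP (1 library). TAP is tobacco acid pyrophosphatase, which opens the 5′ cap, and CIP is calf intestinal phosphatase, which removes phosphates from uncapped 5′ ends. Neither enzyme is named for the ribo depletion samples. The strains of the series with tagged Htz1, Swr1 or Ino80, or without HTZ1, were used for chromatin samples, which were not analysed here.

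H2A.Z replaces the canonical histone H2A in a small fraction of nucleosomes, and in yeast it is known for its place in the nucleosomes that flank gene starts. SWR1 takes an H2A-H2B dimer out of a nucleosome and puts an H2A.Z-H2B dimer in, using ATP. Its catalytic subunit binds further modules that hold the H2A.Z-H2B dimer, recognise acetylated histone tails or contain actin-related proteins, and some of these subunits are shared with the histone acetyltransferase NuA4.

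The tables held 2821480 counts after ribo depletion, 864536 with TAP and 1097457 with CIP and TAP. No group had replicate values, so every difference below lacks a replicate check, no test was run, and intervals are 95% and cover counting error alone. The deleted genes of the strain, LEU2, URA3 and MET17, had no counts in any table, while HIS3, which also carries a deletion, had 655, 650 and 730 counts in ribo depletion, in TAP and in CIP/TAP. Of all 5797 identifiers 2296 had none in any table, so the zeros of these deleted genes do not check the strain. Identifiers with a close divergent neighbour reached 10 counts more often than the rest, as given further on, and whether strand was used in the counting is not stated. A count listed under a gene is therefore given as that and not as the gene's expression, and 5′ ends on the gene and on its opposite strand cannot be told apart. Coordinates are those of the R64 assembly, which sacCer3, the build of the submitters' processing notes, also names, and none of the 10 genes overlapped another gene of that annotation.

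HTZ1 (YOL012C, chromosome XV, 303579 to 303983), the gene of H2A.Z itself, had 0 counts in ribo depletion, 33 in TAP and 2 in CIP/TAP. In CPM, counts scaled to a table total of 1000000, this was 38.2 in TAP (exact Poisson interval 26.3 to 53.6) and 1.82 in CIP/TAP (0.221 to 6.58). A count of 0 was taken to leave room for up to 3 counts, or 1.06 CPM in ribo depletion. The exact Poisson interval reaches somewhat further, to 1.31 CPM. HTZ1 was thus above 10 counts in the TAP library alone, and it was not detected in ribo depletion, which held the most counts in total.

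SWR1 (YDR334W, chromosome IV, 1135932 to 1140476), the ATPase that drives the exchange, had 1494 counts in ribo depletion, 118 in TAP and 160 in CIP/TAP. These were 529.5, 136.5 and 145.8 CPM, so the ribo depletion value stood above both poly(A) values, whose intervals (113.0 to 163.5 and 124.1 to 170.2) overlapped.

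Among the subunits that bind the dimer or are needed for the exchange, VPS72 and SWC5 differed widely. VPS72 (YDR485C, chromosome IV, 1424820 to 1427207), which binds the H2A.Z-H2B dimer and nucleosome-free DNA, had 0, 0 and 13 counts in ribo depletion, in TAP and in CIP/TAP. SWC5 (YBR231C, chromosome II, 682179 to 683090), which is required for the exchange but not for the assembly of the complex, had 429, 663 and 902 counts in the same order. SWC5 was counted in every table and VPS72 in CIP/TAP only. SWC7 (YLR385C, chromosome XII, 892992 to 893390), a small subunit, had 528, 391 and 533 counts, and SWC3 (YAL011W, chromosome I, 132199 to 134076) had 0 in all 3 tables.

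ARP6 (YLR085C, chromosome XII, 300673 to 301989), an actin-related protein on which part of the complex assembles, had 47 counts in ribo depletion, 168 in TAP and 2 in CIP/TAP. Its values of 16.7 CPM (12.2 to 22.2), 194.3 CPM (166.1 to 226.0) and 1.82 CPM (0.221 to 6.58) had intervals that did not overlap, with TAP the highest and CIP/TAP the lowest.

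The subunits that read histone acetylation or are shared with NuA4 were SWC4, YAF9 and BDF1. SWC4 (YGR002C, chromosome VII, 498476 to 499906), a subunit of both complexes, had 121, 11 and 14 counts. YAF9 (YNL107W, chromosome XIV, 420098 to 420778), which is also in both and whose YEATS domain binds acetylated histone H3, had 195, 150 and 230. SWC4 was highest in ribo depletion, whereas YAF9 had at least 150 counts in each table. BDF1 (YLR399C, chromosome XII, 919536 to 921596), which binds acetylated histone H4 through its bromodomains and also associates with TFIID, had 0 counts in all 3 tables.

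**Figure D1:**
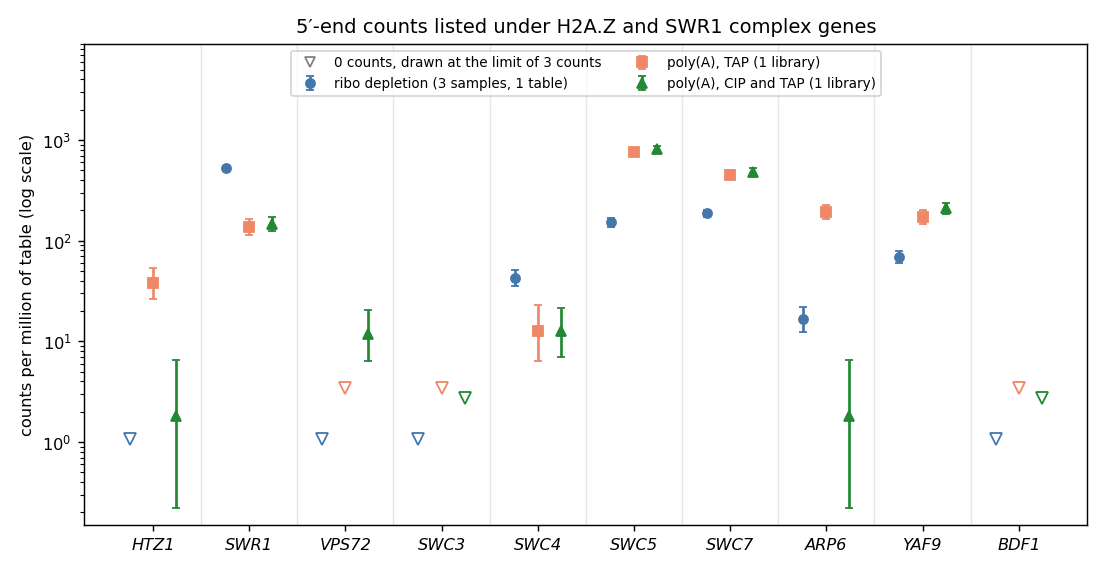
CPM (log axis) listed under each of the 10 genes in the 3 tables, with exact 95% Poisson intervals for counting error. Open triangles mark 0 counts, drawn at the CPM of 3 counts. SWR1, SWC5, SWC7 and YAF9 sit between 69.1 and 821.9 CPM in every table, while SWC3 and BDF1 have no counts in any.

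In all, 6 of the 10 genes had at least 10 counts in ribo depletion, where 31.5% of all identifiers did. The number was 7 in TAP, against 37.1% of all identifiers, and 6 in CIP/TAP, against 33%. The exact binomial intervals of 26.2 to 87.8% for 6 of 10 and 34.8 to 93.3% for 7 of 10 are wide. Each includes the share over all identifiers. SWR1, SWC4, SWC5, SWC7 and YAF9 reached 10 counts in every table, as did 22.2% of all identifiers. SWC3 and BDF1 were among the 2296 identifiers at 0 throughout. Together the 10 genes held 0.0997% of the ribo depletion counts, 0.177% of TAP and 0.169% of CIP/TAP.

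Levels were ordered per length, as CPM per kb of gene, although counts of 5′ ends need not grow with gene length. SWC7 was highest in each table, at 469.0 CPM per kb in ribo depletion, 1134 in TAP and 1217 in CIP/TAP, and SWC5 was next at 166.7, 840.9 and 901.2. In CPM per kb, 252, 176 and 154 identifiers stood above SWC7. In ribo depletion SWR1 (116.5 CPM per kb, interval 110.7 to 122.6) and YAF9 (101.5, 87.7 to 116.8) followed with intervals that overlapped, then SWC4 at 30.0 and ARP6 at 12.6. The TAP order below SWC5 was YAF9 at 254.8, ARP6 at 147.6, HTZ1 at 94.2, SWR1 at 30.0 and SWC4 at 8.89 CPM per kb, and among these neighbours only ARP6 and HTZ1 had intervals that overlapped (126.1 to 171.6 and 64.9 to 132.4). In CIP/TAP YAF9 stood at 307.7 and SWR1 at 32.1 CPM per kb. Below them SWC4 (8.91, interval 4.87 to 14.96), VPS72 (4.96, 2.64 to 8.48), HTZ1 (4.50, 0.545 to 16.3) and ARP6 (1.38, 0.168 to 4.999) each overlapped the next in that order.

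The 10 genes were also grouped by the gene that lies beyond their 5′ end. SWR1, SWC4, SWC5, SWC7, ARP6 and YAF9 each had a divergent upstream gene, one on the opposite strand that is transcribed away, with a gap of at most 500 bp. All 6 had at least 10 counts in ribo depletion and in TAP, and 5 of them, all but ARP6, did in CIP/TAP. Over all 1481 identifiers with such a neighbour the shares were 70.2%, 76.7% and 73% in ribo depletion, in TAP and in CIP/TAP. The 4 other genes had none within that gap. HTZ1 has its divergent neighbour at 1365 bp, and VPS72, SWC3 and BDF1 lie behind a tandem gene, one on the same strand. VPS72 and SWC3 have it within 500 bp, an arrangement of 1921 identifiers of which 17.1%, 21.4% and 16.6% had at least 10 counts, against 0, 0 and 1 of these 2 genes. Of these 4, 0 reached 10 counts in ribo depletion, 1 in TAP (HTZ1) and 1 in CIP/TAP (VPS72), while 18.2%, 23.5% and 19.3% of the 4313 identifiers without a divergent neighbour in that gap did. These are counts over 6 and 4 genes, and nothing particular to SWR1 genes is read from them.

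**Figure D2:**
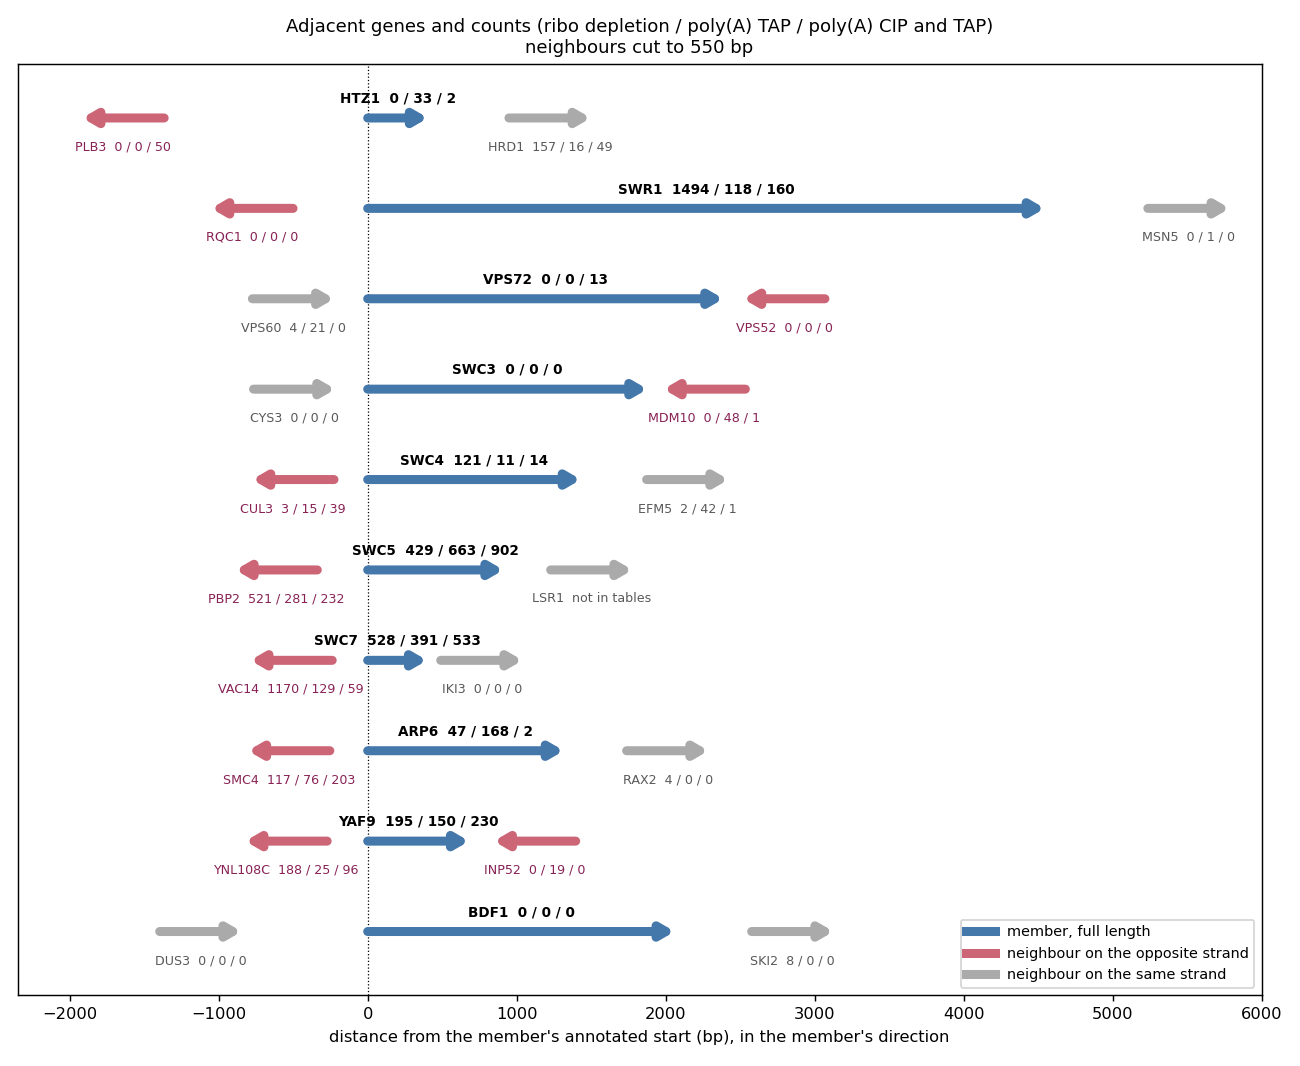
Genes next to each of the 10 genes, drawn in the direction of the gene itself, with distance in bp from its annotated start on the horizontal axis. Numbers are counts in ribo depletion, in TAP and in CIP/TAP, and neighbours are drawn at a fixed length. SWC7 with 528, 391 and 533 counts stands beside VAC14 with 1170, 129 and 59, while RQC1 beside SWR1 has 0 in each table.

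The gap of SWR1, at 500 bp, is on the limit used, and within 350 bp the group is SWC4, SWC5, SWC7, ARP6 and YAF9. Among the 169 identifiers with a divergent neighbour above 450 and up to 500 bp away, 34.9% (27.8 to 42.6%) had at least 10 counts in ribo depletion, 43.2% in TAP and 33.1% in CIP/TAP. At the gaps of SWC4 and SWC7, 225 and 237 bp, the shares among 284 identifiers (above 200 and up to 250 bp) were 84.5%, 90.5% and 87.7%. HTZ1, with 33 TAP counts, belongs to the 21.8% (16.8 to 27.6%) of 238 identifiers that reached 10 counts there with a divergent neighbour above 1000 and up to 1500 bp away. VPS72 and SWC3, whose tandem neighbours lie at 223 and 215 bp, belong to a class of 300 identifiers (above 200 and up to 250 bp) in which 18%, 20.7% and 15% reached 10 counts.

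**Figure D3:**
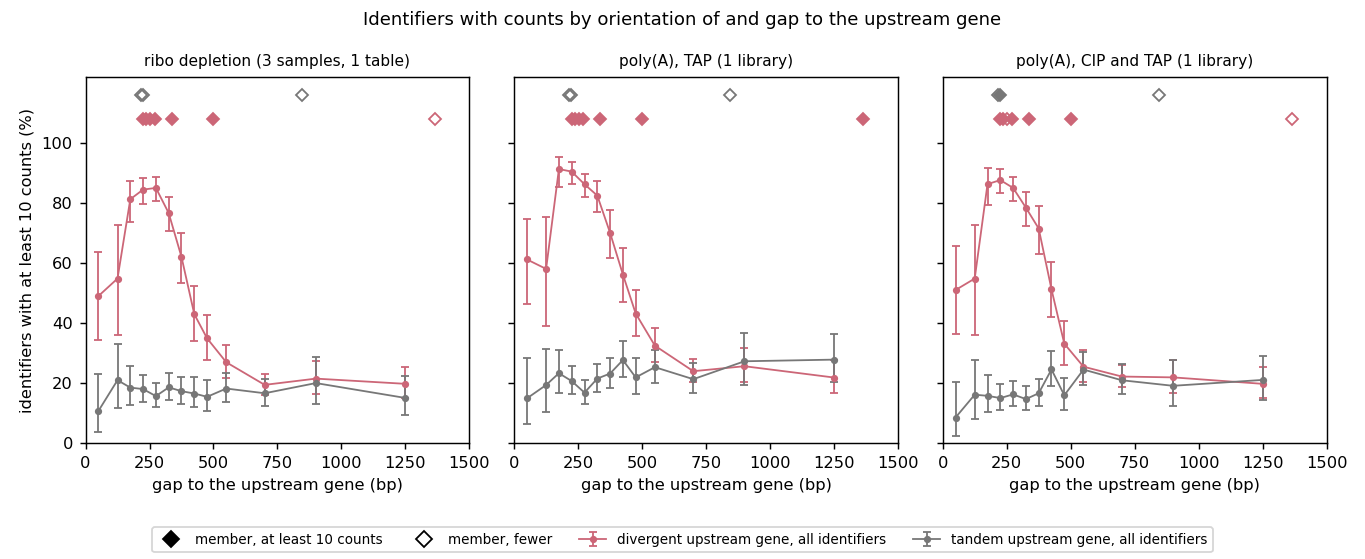
Share of all identifiers with at least 10 counts (vertical axis, percent, exact 95% binomial intervals) by the gap in bp to a divergent (red) or tandem (grey) upstream gene, in each table. Diamonds above the curves mark the 10 genes at their own gaps, filled where they have at least 10 counts. The red curve passes 84.5% at 200 to 250 bp and 34.9% at 450 to 500 bp in ribo depletion, and the filled red diamonds of ribo depletion all lie at 500 bp or less.

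The identifiers on the opposite strand next to the 10 genes had counts of their own in most cases. So did most identifiers of any kind, since 2296 of all 5797 were at 0 throughout. PLB3 (YOL011W), a phospholipase B gene divergent from HTZ1, had 0, 0 and 50 counts in ribo depletion, in TAP and in CIP/TAP, where HTZ1 had 0, 33 and 2. RQC1 (YDR333C), a gene of ribosome quality control beside SWR1, had 0 in all 3 tables. Nearly all counts of the HTZ1 pair were therefore listed under HTZ1 in one poly(A) library and under PLB3 in the other, and those of the SWR1 pair were under SWR1 in each table.

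CUL3 (YGR003W), a cullin gene beside SWC4 at 225 bp, had 3, 15 and 39 counts in ribo depletion, in TAP and in CIP/TAP. PBP2 (YBR233W), which encodes an RNA-binding protein, lies 337 bp from SWC5 and had 521, 281 and 232. On the 3′ side of SWC5, at 316 bp and on the same strand, lies the snRNA gene LSR1 (YNCB0019C), which the tables do not list. Whether 5′ ends of LSR1 add to the counts listed under SWC5 was not tested. VAC14 (YLR386W), a gene of phosphoinositide synthesis 237 bp from SWC7, had 1170, 129 and 59. In CPM, VAC14 was highest in ribo depletion (414.7) and CUL3 in CIP/TAP (35.5). PBP2 was at 184.7, 325.0 and 211.4 CPM, and its ratio of TAP over ribo depletion had no stable sign, at −0.47 with TMM scaling and 0.82 with total counts.

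SMC4 (YLR086W), a condensin gene 253 bp from ARP6, had 117, 76 and 203 counts, and YNL108C, 271 bp from YAF9, had 188, 25 and 96. On the 3′ side, the convergent neighbours were VPS52 (YDR484W) beside VPS72, with 0 in all 3 tables, MDM10 (YAL010C) beside SWC3, with 0, 48 and 1, and INP52 (YNL106C) beside YAF9, with 0, 19 and 0. BDF1 has no opposite-strand neighbour on either side. Its tandem neighbours DUS3 (YLR401C) and SKI2 (YLR398C) had 0 counts, apart from 8 for SKI2 in ribo depletion. HRD1 (YOL013C), the tandem neighbour on the 3′ side of HTZ1, had 157, 16 and 49 counts. VPS60 (YDR486C), the tandem gene upstream of VPS72, had 4, 21 and 0.

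CIP/TAP against TAP compares poly(A)-selected RNA with and without the removal of phosphates from uncapped 5′ ends before TAP. Ratios are log2 of (count + 0.5) over library sizes scaled by edgeR's TMM method, and a gene counts as measured from a sum of 50 in the pair of tables. Of 5 genes measured, 1 was at least 2-fold lower (ARP6) and 0 were higher, where 15.6% and 22.2% of 1679 identifiers were. ARP6, with 2 counts against 168, was at log2 −6.26 (−9.63 to −4.70), the 18th lowest of all measured identifiers. SWR1 was at 0.25 (−0.10 to 0.61), SWC5 at 0.26 (0.11 to 0.41), SWC7 at 0.26 (0.07 to 0.46) and YAF9 at 0.43 (0.13 to 0.74). These 4 ratios were close to one another and to the median of all identifiers, 0.16. The median of the 5 genes was 0.26, or 0.10 on total counts and 0.06 on upper quartiles.

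HTZ1, SWC4 and VPS72 had under 50 counts over both poly(A) libraries. HTZ1, with 2 counts against 33, had a ratio of −3.93 (−7.33 to −2.26), whose whole interval is beyond 4-fold lower. SWC4, with 14 against 11, was at 0.15 (−1.08 to 1.45), an interval that allows a 2-fold difference either way. VPS72, with 13 against 0, was at least 3.82-fold higher in CIP/TAP if its 13 counts are taken as exact and 3 counts as the limit for the TAP library. With the counting error of both libraries the lower limit of the log2 ratio was 1.42.

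TAP against ribo depletion, and CIP/TAP against ribo depletion, ask how poly(A)-selected RNA differs from RNA freed of ribosomal RNA. Both use the same ribo depletion table, and enzyme treatment and selection cannot be told apart in them. SWR1 and SWC4 were lower in both. SWR1 was at −3.23 (−3.52 to −2.97) for TAP and −2.91 (−3.16 to −2.68) for CIP/TAP, and SWC4 at −2.98 (−4.08 to −2.15) and −2.76 (−3.72 to −2.0003). With total counts in place of TMM these ratios were between −1.95 and −1.69, still past 2-fold.

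SWC5 was higher, at 1.05 (0.87 to 1.23) for TAP and 1.38 (1.21 to 1.55) for CIP/TAP. The first lies next to the 2-fold limit and fell inside it with DESeq2 size factors, at 0.92. ARP6 was at 2.25 (1.79 to 2.76) for TAP. For CIP/TAP its 2 counts against 47 add up to 49, just under the minimum, with a ratio of −3.94 (−7.33 to −2.31). ARP6 thus stood above ribo depletion in one poly(A) library and below it in the other.

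SWC7 was at −0.01 (−0.20 to 0.18) for TAP and 0.32 (0.15 to 0.50) for CIP/TAP, and YAF9 at 0.04 (−0.27 to 0.36) and 0.55 (0.27 to 0.83). With total counts these became 1.27 and 1.38 for SWC7 and 1.33 and 1.60 for YAF9, past 2-fold. That scaling shifted all identifiers by 1.28 for TAP and 1.05 for CIP/TAP, so for both genes the call follows the scaling. HTZ1, with 33 TAP counts against 0, was at least 14.7-fold higher than in ribo depletion on the same terms, with a lower limit of the log2 ratio of 3.50.

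Counting the measured genes, 2 of 6 were at least 2-fold higher and 2 lower for TAP, where 31.9% and 38% of 1646 identifiers were (69.9% either way). For CIP/TAP 1 of 5 was higher and 2 were lower, where 36.4% and 35.6% of 1700 identifiers were (72% either way). With total counts the higher and lower identifiers went from 525 and 626 to 850 and 381 for TAP, and from 619 and 605 to 868 and 393 for CIP/TAP. The medians of the genes were 0.02 (range −3.23 to 2.25) and 0.32 (−2.91 to 1.38), beside −0.18 and 0.02 over all measured identifiers. The median for TAP was −0.11 with DESeq2 size factors and 1.30 with total counts, so it has no stable sign, and that for CIP/TAP was 1.38 with total counts, past 2-fold. The genes therefore did not shift in one direction: SWR1 and SWC4 lay on the lower side, SWC5 on the higher side.

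**Figure D4:**
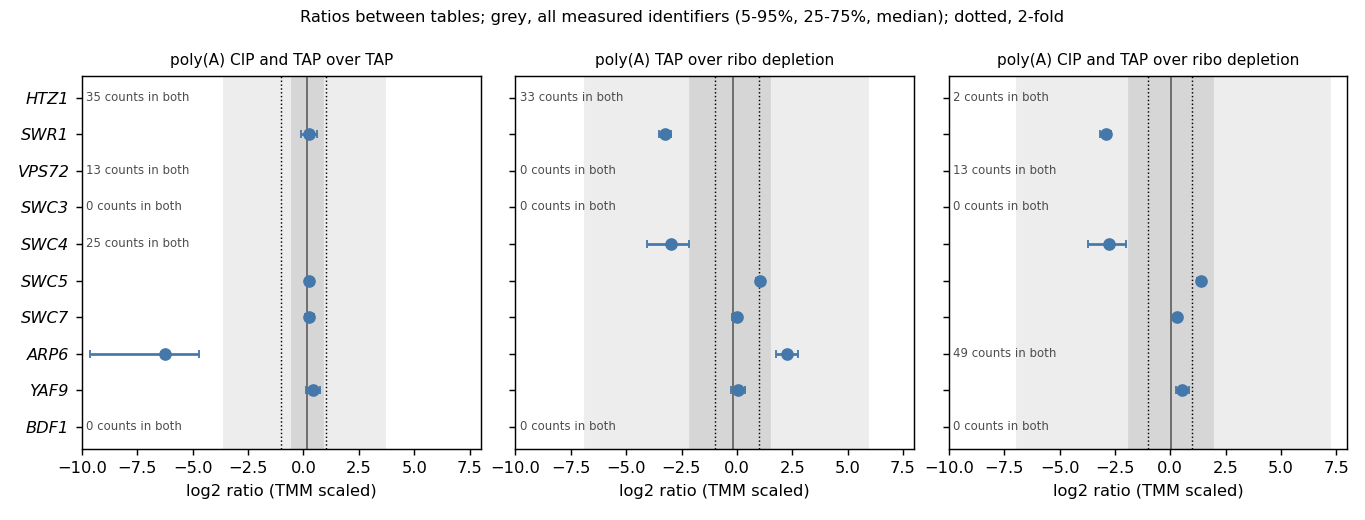
Log2 ratios between tables for each of the 10 genes (points, exact 95% counting intervals) over the spread of all measured identifiers (grey bands, 5th to 95th and 25th to 75th percentile, with the median as a line). Dotted lines mark 2-fold, and genes under 50 counts show their summed count. ARP6 at −6.26 lies outside the light band for CIP/TAP over TAP, and SWR1 and SWC4 lie left of the dark band in both comparisons with ribo depletion.

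The division of counts within a divergent pair was also followed, since the division of a pair does not depend on how the tables are scaled. With exact intervals in parentheses, SWC5 held 45.2% (42.0 to 48.4%) of the counts of its pair with PBP2 in ribo depletion, 70.2% (67.2 to 73.1%) in TAP and 79.5% (77.1 to 81.9%) in CIP/TAP. SWC7 held 31.1% (28.9 to 33.4%) of its pair with VAC14 in ribo depletion, 75.2% (71.2 to 78.8%) in TAP and 90.03% (87.3 to 92.3%) in CIP/TAP. In both pairs the 3 intervals were apart, with ribo depletion lowest and CIP/TAP highest. The log2 odds ratio of SWC7 against VAC14 for TAP over ribo depletion was 2.75 (2.42 to 3.08), and for CIP/TAP over TAP it was 1.57 (1.08 to 2.08).

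YAF9 held 50.9% (45.8 to 56.0%) of the counts it shared with YNL108C in ribo depletion, 85.7% (79.6 to 90.5%) in TAP and 70.6% (65.3 to 75.4%) in CIP/TAP. ARP6 held 28.7% (21.9 to 36.2%) of its pair with SMC4 in ribo depletion, 68.9% (62.6 to 74.6%) in TAP and 0.976% (0.118 to 3.48%) in CIP/TAP. These pairs also had more of their counts under the SWR1 complex gene in TAP than in ribo depletion, but in CIP/TAP the share under ARP6 was below its ribo depletion value. How divergent pairs over all identifiers divided was not computed, so nothing particular to SWR1 genes is read from these directions. The log2 odds ratio of ARP6 against SMC4 for CIP/TAP over TAP was −7.79 (−10.88 to −5.85), and the ratio of SMC4 itself was 1.23 (0.85 to 1.63).

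SWC4 went the other way. It held 97.6% (93.1 to 99.5%) of its pair with CUL3 in ribo depletion, 42.3% (23.4 to 63.1%) in TAP and 26.4% (15.3 to 40.3%) in CIP/TAP, and the poly(A) intervals overlapped. SWR1 held all counts of its pair with RQC1 in every table, 1494, 118 and 160 in number, with lower interval bounds of 99.8%, 96.9% and 97.7%. HTZ1 held 33 of 33 counts of its pair with PLB3 in TAP (89.4 to 100%) and 2 of 52 in CIP/TAP (3.85%, 0.469 to 13.2%).

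**Figure D5:**
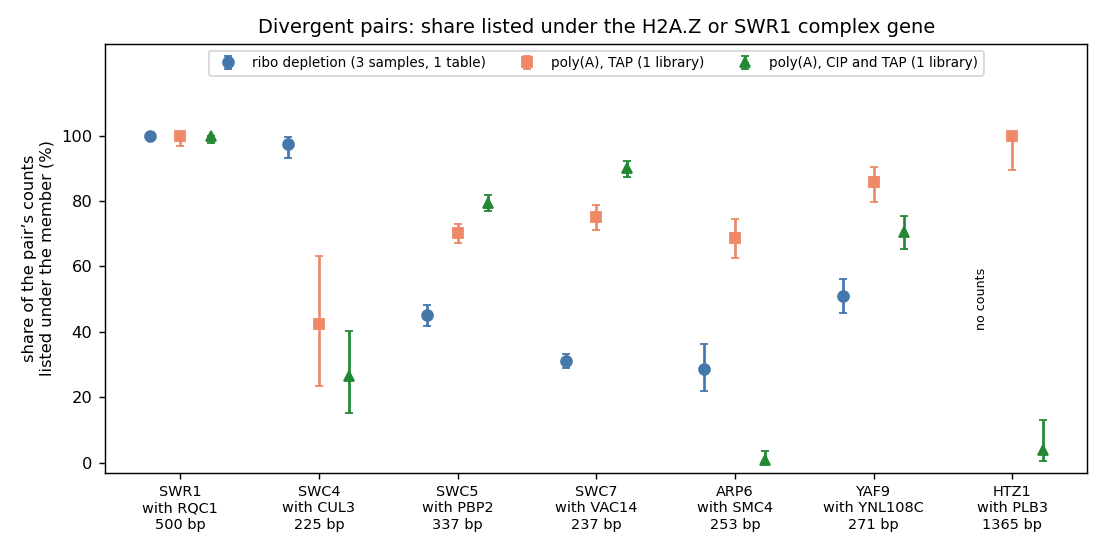
Share of the summed counts of a divergent pair that is listed under the H2A.Z or SWR1 complex gene (vertical axis, percent), by pair and table, with exact 95% binomial intervals. The gap between the genes is given under each pair. The share rises from 31.1% to 90.03% for SWC7 from ribo depletion to CIP/TAP, and that of ARP6 is 0.976% in CIP/TAP.

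The rest of the pathway was read from a list of 14 genes. Of the 5 remaining SWR1 subunits, VPS71 (SWC6) and the actin-related ARP4 had 0 counts in all 3 tables, as had 2296 of all 5797 identifiers. ACT1, the actin gene, had 907, 1016 and 1339 counts in ribo depletion, in TAP and in CIP/TAP. The AAA+ ATPase genes RVB1 and RVB2, whose products SWR1 shares with INO80, had 4, 57 and 39, and 0, 45 and 8. ACT1, which has a tandem upstream gene, was counted in every table, whereas RVB1 reached 10 counts in both poly(A) libraries and RVB2 in TAP alone. Of the 3 measured for CIP/TAP against TAP, RVB2 was lower at −2.60 (−3.97 to −1.58), and RVB1 (−0.73) and ACT1 (0.21) were within 2-fold. Over all 1679 measured identifiers 15.6% were at least 2-fold lower and 22.2% higher. For TAP against ribo depletion RVB1 was higher at 4.10 (2.82 to 6.18) and ACT1 was at 0.59, or 1.87 with total counts.

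All 4 genes of histones H2A and H2B (HTA1, HTA2, HTB1 and HTB2), the canonical counterpart and the partner of H2A.Z, had 0 counts in all 3 tables. They lie as divergent H2A-H2B pairs with gaps of 817 and 699 bp. The chaperone gene NAP1 had 12, 11 and 61 counts and CHZ1, a chaperone that prefers H2A.Z, had 162, 589 and 730. KAP114, an importin of H2A-H2B and H2A.Z, had 1274, 256 and 67 counts, and KAP123, another importin, had 0, 0 and 105. CHZ1 was higher in both poly(A) libraries than in ribo depletion, at 2.28 (2.03 to 2.54) and 2.48 (2.23 to 2.74), while KAP114 was lower at −1.89 (−2.09 to −1.70) and −3.93 (−4.32 to −3.58). The value of KAP114 for TAP was −0.61 with total counts, within 2-fold. Of the 4 genes of this list measured for CIP/TAP against TAP, NAP1 was higher at 2.24 (1.35 to 3.36), KAP123 was at least 30.8-fold higher against the limit of 3 counts (lower limit of the log2 ratio 4.62), KAP114 was lower at −2.11 (−2.53 to −1.72) and CHZ1 was at 0.13, or −0.03 with total counts. BDF2, the paralog of BDF1, had 0, 20 and 1 counts.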

How the data were processed

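The authors deposited raw counts for each gene identifier, as whole numbers, per the file headers. The submitters' processing notes name sacCer3 as build and, without saying what each did, featureCounts, bedtools, BWA 0.6.2 and bcl2fastq. Which feature was counted, how strand was set and how the 3 ribo depletion samples became 1 table is not given in the sources used. Of the 17 samples of the series, the 5 SMORE-seq samples were used.

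Of 5797 identifiers, 5794 matched the R64 gene table, and the 3 others had 0 counts. The W or C in a systematic name gave the strand, and a gap is the number of bases between 2 genes. Each pair of tables was scaled over all identifiers with edgeR 4.0.16 (TMM, R 4.3.3), with a pseudocount of 0.5, a minimum of 50 summed counts and a call at 2-fold. Ratio intervals are exact and conditional on the summed count (Clopper-Pearson, scipy 1.17.1), pair shares have Clopper-Pearson intervals and their changes conditional odds ratios. Reads carry no molecular identifiers. DESeq2 1.42.0 gave alternative size factors. The ratio calculation was run on simulated Poisson data, which hold counting error and no variation between libraries, so it does not check the ratios between these libraries. All 10 genes, their opposite-strand neighbours, some of their same-strand neighbours and the pathway lists are named. The pathway lists were chosen with earlier results of these data known. Planned promoter motifs and protein identities were not run, and no sequences were used here.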

Additional observations from a re-analysis of the deposited data

How the results depend on the processing

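For CIP/TAP over TAP, a minimum of 10 counts gave 1 of the 10 genes higher and 2 lower (622 and 783 identifiers), and a minimum of 200 left 0 lower, since ARP6 has 170 counts, with 123 and 49 identifiers. For TAP over ribo depletion, total counts gave 4 genes higher and 850 identifiers higher against 381 lower, where TMM gave 525 and 626. DESeq2 size factors left 1 gene higher. A minimum of 10 gave 1100 identifiers higher, and a minimum of 200 gave 1 gene lower and 206 identifiers higher. For CIP/TAP over ribo depletion, total counts gave 3 genes higher and 393 identifiers lower, a minimum of 10 gave 2 genes and 960 identifiers higher, and a minimum of 200 gave 1 gene lower and 270 identifiers higher. With total counts the higher share of all calls rose in both comparisons with ribo depletion, and no called ratio of the 10 genes changed sign under any alternative. With a divergent gene within 350 bp, 80.1%, 85.3% and 82.1% of identifiers had at least 10 counts in ribo depletion, in TAP and in CIP/TAP, and within 1000 bp 50.5%, 56.3% and 52.6%. The median log2 ratio of the measured genes among the 10 went from 0.26 to 0.10 for CIP/TAP over TAP, from 0.02 to 1.30 for TAP over ribo depletion and from 0.32 to 1.38 for CIP/TAP over ribo depletion with total counts. The further counts stayed within 1.5 times and the shares with a tandem gene within their intervals. No paired analysis was possible because the 3 ribo depletion samples share 1 table and each poly(A) group has 1 library, and for the same reason no replicate could be left out. Depth limits the ratios of HTZ1, VPS72 and SWC4 between the poly(A) libraries, which rest on under 50 counts each.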

Other observations

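HTZ1 and VPS72 were each counted in 1 table almost alone, a pattern noticed after their values were seen. With at least 10 counts in TAP and at most 2 in each other table, HTZ1 was 1 of 302 identifiers, which are 14.1% of the 2148 with at least 10 TAP counts. Among the 19 neighbours of the 10 genes that the tables list, MDM10, EFM5 and INP52 had the same pattern. Over all identifiers 5.21% had it. VPS72, counted in CIP/TAP alone, was 1 of 179 such identifiers, 9.36% of the 1912 with at least 10 counts, and PLB3 beside HTZ1 was another. These 179 were 3.09% of all identifiers. None of the 10 genes or their neighbours was among the 200 identifiers counted in ribo depletion alone by this measure. These 200 were 3.45% of all identifiers, so nothing is read from their absence here. EFM5, which lies on the 3′ side of SWC4 in the same orientation, had 2, 42 and 1 counts in ribo depletion, in TAP and in CIP/TAP.

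Divergent pairs of the wider pathway with a gap of at most 500 bp were divided as follows, without the division of all divergent pairs beside them. With exact 95% intervals in parentheses, CHZ1 held 1.12% (0.955 to 1.30%) of the counts it shared with SMB1, a gene of the spliceosomal Sm ring at 259 bp, in ribo depletion, 11.6% (10.7 to 12.5%) in TAP and 8.99% (8.38 to 9.63%) in CIP/TAP. RVB1 held 0.555% (0.151 to 1.41%) of its pair with HST4 (341 bp) in ribo depletion, 4.94% (3.76 to 6.35%) in TAP and 3.78% (2.70 to 5.13%) in CIP/TAP. For both genes the shares in the poly(A) libraries lay above that of ribo depletion by intervals that did not overlap. KAP114 held 96.7% (95.6 to 97.6%) of its pair with ANK1 (247 bp) in ribo depletion, 92.4% (88.6 to 95.2%) in TAP and 35.3% (28.5 to 42.5%) in CIP/TAP. At wider gaps, RVB2 held 0%, 3.45% and 0.994% of its pair with ENV7 (529 bp) in the same order. BDF2 held 0 of 15, 20 of 21 and 1 of 1 counts of its pair with YET3 (576 bp).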
